A study of Mus musculus with 6 samples.

Results

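The genes that build and run the transport system of the cilium were examined in whole lungs of RbpjkCNULL and control mouse embryos at E18.5. The 35 genes were chosen by name as known parts of intraflagellar transport (IFT), of the motors that drive it and of the BBSome. All 35 were found among the 21225 genes measured, 34 of them through the symbol table of the array and Arl6 through its Entrez Gene ID. The 3 RbpjkCNULL lungs (Shhcre/+; RbpjkFlox/Flox) lacked Rbpjk, the transcription factor of canonical Notch signaling, in cells of the Shh-cre lineage, which in the lung is the epithelium, while all other lung cells kept it. The 3 control lungs carried conflicting labels, Wildtype in one field and Shh cre/+ in another, so whether they carried cre could not be told. All lungs were of the C57BL/6 strain and were hybridized to 1 Affymetrix Mouse Gene 1.0 ST array each, and values are given on the log2 scale after RMA normalization by the authors. Precision was limited by the number of arrays, 3 per condition.

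IFT carries cargo along the microtubules of the cilium in trains made of 2 complexes. IFT-B trains are drawn to the tip by kinesin-2 motors, and IFT-A and the dynein-2 motor serve the return to the base. The BBSome is a coat of Bardet-Biedl syndrome proteins that rides on these trains and moves membrane proteins in and out of the cilium. The same machinery is used by the single primary cilium of most lung cells and by the many motile cilia of airway ciliated cells. In a whole lung these cilia are measured as one, and more ciliated cells or more transcript per cell cannot be told apart.

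The lungs carried high levels of lung markers in both conditions. Sftpc, the surfactant protein of alveolar type 2 cells, had a mean of 12.89 in RbpjkCNULL and of 12.87 in control lungs, and Nkx2-1, the transcription factor of lung epithelium, had 8.70 and 8.77. Other markers moved more. Of 7 type 2 markers, 6 had a log2 fold change above 0 (up to 0.28), and 7 markers of all epithelium ran from -0.09 to 0.30. In each list 0 passed limma at an adjusted p under 0.05, and 1 gene was higher without overlap between the conditions (4.95% of all genes). Rbpj itself had values of 6.26, 6.17 and 6.18 in RbpjkCNULL lungs, against 6.45, 6.50 and 6.74 in control lungs. The RbpjkCNULL lungs were all below the controls, with a log2 fold change of -0.36 (standard error 0.09, adjusted p = 0.21 from limma), and these values combine the whole gene and all cell types. Xist, which is made from the inactive X chromosome, was low in the 3 RbpjkCNULL lungs (4.13 to 4.28) and in control replicate 3 (4.91), and high in control replicates 1 and 2 (10.5 and 10.7). The Xist level thus followed genotype in all lungs but control replicate 3. The Y-linked genes Ddx3y, Eif2s3y, Kdm5d and Uty had the reverse pattern. Ddx3y had 9.19, 9.995 and 9.27 in RbpjkCNULL lungs and 9.21 in control replicate 3. It had 3.83 and 3.90 in control replicates 1 and 2. By these genes the RbpjkCNULL lungs and control replicate 3 were male and the other controls female. Sex and genotype were thus confounded in all lungs but control replicate 3. The lower quartile of all values was 5.03 in RbpjkCNULL replicate 1, 5.11 in control replicate 1 and 5.08 in control replicate 3, and 4.87 to 4.89 in the other arrays.

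Of the 35 genes, 4 rose in RbpjkCNULL lungs and 0 fell at an adjusted p under 0.05 (limma, adjusted over all 21225 genes, where 1.16% rose and 0.113% fell, 1.27% in all). The 4 were Traf3ip1, Ttc30b and Ift81 of IFT-B and Dync2h1 of the dynein-2 motor. At an unadjusted p under 0.05, 24 of the 35 were higher and 0 were lower, and 3.56% of all genes were higher at that threshold. At an adjusted p under 0.1, 11 of the 35 were higher, against 1.5% of all genes. Every RbpjkCNULL lung lay above every control lung for 28 of the 35, as it did for 4.95% of all genes, and every RbpjkCNULL lung lay below every control lung for 0 of the 35, against 9.28% of all genes. The log2 fold change was above 0 for 34 of the 35 and for 31.9% of all genes. The differences were small, with a median of 0.26 (1.199-fold) over the 35 genes, against a median of -0.05 over all genes.

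**Figure D1:**
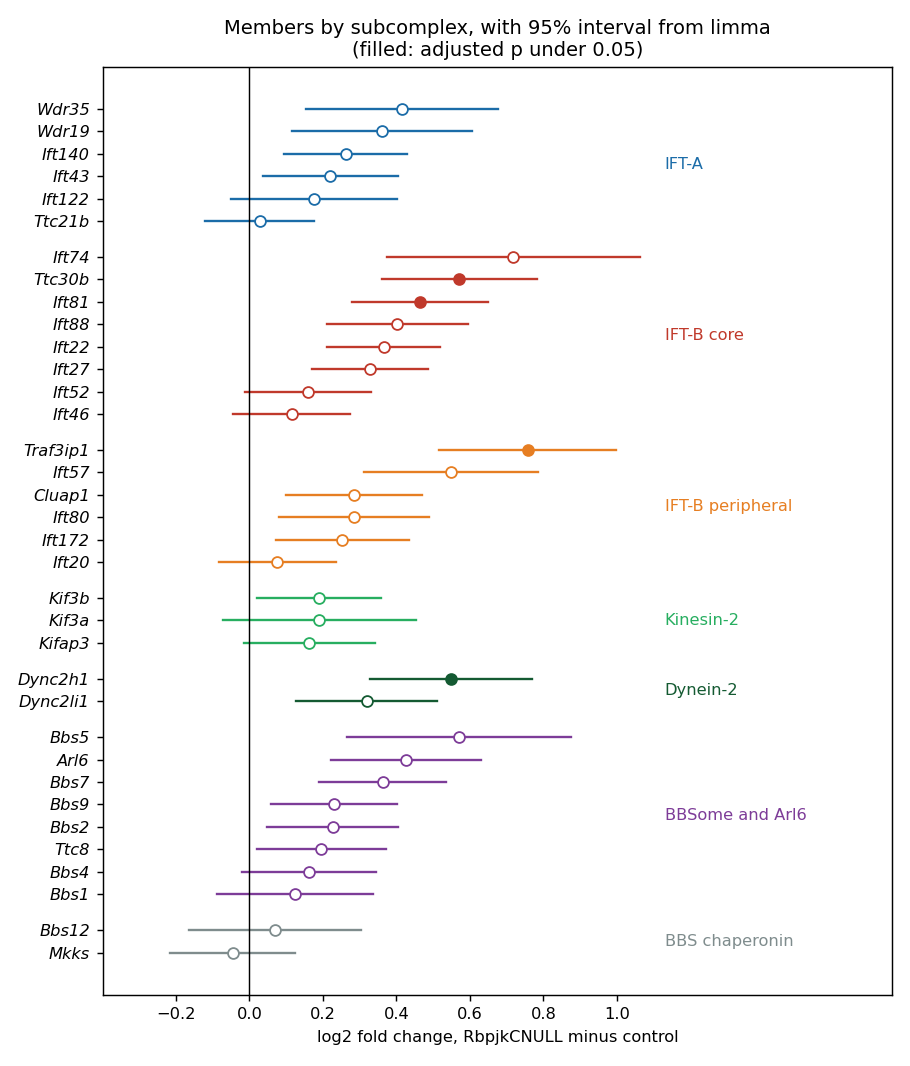
Log2 fold change (RbpjkCNULL minus control, horizontal axis) of the 35 genes, grouped by subcomplex. Points are limma estimates from 3 lungs per condition, lines are unadjusted 95% intervals, and filled points are the 4 genes with an adjusted p under 0.05. All points but Mkks lie to the right of 0.

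The 2 largest log2 fold changes, those of Traf3ip1 and Ift74, were in the IFT-B complex. Its core, on which the train is built, had 8 genes measured, of which 2 rose and 0 fell, with a median log2 fold change of 0.38. Every RbpjkCNULL lung lay above every control lung for all 8, as for 4.95% of all genes. Ift81, which with Ift74 binds tubulin, had values of 8.11, 8.29 and 8.23 in RbpjkCNULL lungs, against 7.66, 7.80 and 7.77 in control lungs. The lowest RbpjkCNULL lung was well above the highest control, and Ift81 was 1.38-fold higher (log2 fold change 0.46, standard error 0.08, adjusted p = 0.0402). Ttc30b, a tetratricopeptide repeat protein of the core, had values of 7.26, 7.49 and 7.33 in RbpjkCNULL lungs, against 6.68, 6.81 and 6.89 in control lungs. The conditions were again apart, and Ttc30b was 1.49-fold higher (0.57, standard error 0.09, adjusted p = 0.0287). Mouse has close copies of this gene, Ttc30a1 and Ttc30a2. They had low values, 4.41 to 4.70 and 4.15 to 4.24 in RbpjkCNULL lungs, against 4.35 to 4.78 and 3.93 to 4.62 in control lungs, and how the probes divide among the copies is not known.

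Ift74, the partner of Ift81, had the largest difference of the core but also the widest spread. Its values were 6.92, 7.26 and 7.12 in RbpjkCNULL lungs, against 6.08, 6.59 and 6.48 in control lungs. Control replicate 1 lay far below the other controls, and the log2 fold change of 0.72 had a standard error of 0.15 (adjusted p = 0.0908). Ift22, a small GTPase-like subunit, was close to the threshold, with 8.01, 8.04 and 8.10 in RbpjkCNULL lungs, against 7.67, 7.66 and 7.72 in control lungs (0.37, standard error 0.07, adjusted p = 0.0523). Ift88, whose loss in mouse leaves cells without proper cilia, had a difference of 0.40 (0.08, adjusted p = 0.0877), and Ift27, a GTPase of the complex that serves BBSome traffic, one of 0.33 (0.07, adjusted p = 0.0908). Ift52, a structural subunit, had 0.16 (0.07, adjusted p = 0.628). Ift46, which binds Ift52, had 8.95, 9.02 and 9.02 in RbpjkCNULL lungs, against 8.83, 8.95 and 8.86 in control lungs. The lowest RbpjkCNULL lung was barely above the highest control, and the difference was the smallest of the core (0.11, standard error 0.07, adjusted p = 0.699).

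The peripheral part of IFT-B, which joins the train to the kinesin motor and to cargo, had 6 genes, of which 1 rose and 0 fell, with a median of 0.29. Traf3ip1, a microtubule-binding subunit, had the largest log2 fold change of the 35 genes. Its values were 8.29, 8.16 and 8.27 in RbpjkCNULL lungs, against 7.29, 7.51 and 7.65 in control lungs. The gap between the conditions was wider than the spread within either, and Traf3ip1 was 1.69-fold higher (0.76, standard error 0.10, adjusted p = 0.0141). Ift57, another subunit of this part, had 7.92, 8.09 and 7.92 in RbpjkCNULL lungs, against 7.26, 7.59 and 7.44 in control lungs (0.55, standard error 0.10, adjusted p = 0.0596). Cluap1, Ift80 and Ift172, also of this part, had differences of 0.29, 0.29 and 0.25, each without overlap between the conditions and with adjusted p of 0.272 to 0.365. Ift20, which also works at the Golgi apparatus, had 9.56, 9.63 and 9.62 in RbpjkCNULL lungs, against 9.48, 9.51 and 9.59 in control lungs. The conditions overlapped, and the interval of the difference ran from -0.08 to 0.24.

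**Figure D2:**
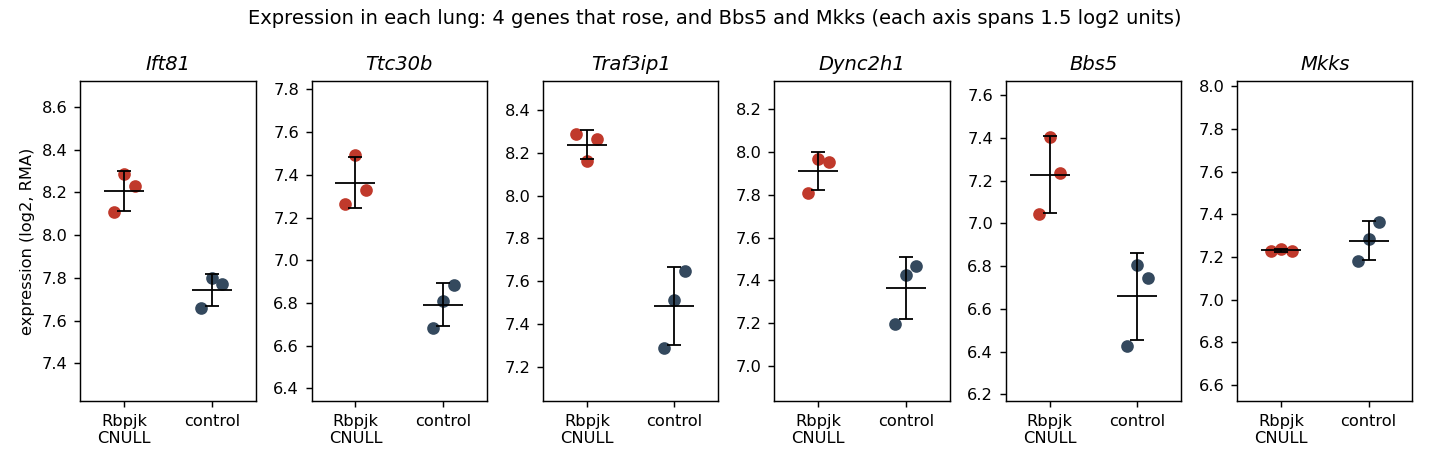
Expression (log2, vertical axes, each spanning the same width) in each of 3 RbpjkCNULL and 3 control lungs for the 4 genes that rose and for Bbs5 and Mkks. Points are lungs, the long bar is the mean and the error bars are SD. The conditions are apart for the first 5 genes and overlap for Mkks.

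None of the 6 IFT-A genes passed the test. At an unadjusted p under 0.05, 4 were higher (3.56% of all genes), and 4 were higher without overlap between the conditions (4.95% of all genes). The median log2 fold change was 0.24. Wdr35, a beta-propeller subunit, had 7.55, 7.95 and 7.81 in RbpjkCNULL lungs, against 7.26, 7.41 and 7.39 in control lungs, the largest difference of the complex (0.42, standard error 0.11, adjusted p = 0.253). Wdr19 and Ift140, which with Ift122 form the core of IFT-A, had 0.36 (0.10) and 0.26 (0.07), with adjusted p of 0.314 and 0.262. Ift43, a small peripheral subunit, had 0.22 (0.08, adjusted p = 0.472), and Ift122 had 0.18 (0.10, adjusted p = 0.678) with RbpjkCNULL replicate 1 inside the range of the controls. Ttc21b, a repeat protein needed for retrograde transport, had the smallest difference. Its values were 7.05, 7.08 and 7.10 in RbpjkCNULL lungs, against 7.01, 7.07 and 7.06 in control lungs, and the interval of 0.03 ran from -0.12 to 0.18.

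The motors of both directions were measured by 5 genes, of which 1 rose. Dync2h1, the heavy chain of dynein-2, had 7.81, 7.97 and 7.95 in RbpjkCNULL lungs, against 7.20, 7.43 and 7.47 in control lungs. The groups lay apart, and it was 1.46-fold higher (0.55, standard error 0.09, adjusted p = 0.0423). Dync2li1, its light intermediate chain, had 6.94, 7.10 and 6.94 in RbpjkCNULL lungs, against 6.61, 6.64 and 6.77 in control lungs (0.32, standard error 0.08, adjusted p = 0.215). The 3 kinesin-2 genes had log2 fold changes of 0.16 to 0.19, and 0 of them passed. Kif3b, a motor subunit, had 7.94, 7.88 and 7.98 in RbpjkCNULL lungs, against 7.70, 7.69 and 7.82 in control lungs (0.19, standard error 0.07, adjusted p = 0.506). Kif3a, the partner motor subunit, also had 0.19 but with a standard error of 0.11 and overlapping conditions. Kifap3, the accessory protein of this motor, had 8.08, 8.25 and 8.19 in RbpjkCNULL lungs, against 7.94, 8.04 and 8.06 in control lungs (0.16, standard error 0.08, adjusted p = 0.631). Kinesin-2 also moves cargo outside cilia.

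Of the 8 genes of the BBSome and Arl6, the GTPase that recruits it to membranes, 0 passed the test. At an unadjusted p under 0.05, 6 of the 8 were higher (3.56% of all genes), and 7 were higher without overlap (4.95% of all genes). Their median log2 fold change was 0.23. Bbs5, a lipid-binding subunit, had 7.05, 7.41 and 7.24 in RbpjkCNULL lungs, against 6.43, 6.81 and 6.74 in control lungs. The spread was wide in both conditions, and the difference of 0.57 had a standard error of 0.13 (adjusted p = 0.141). Arl6 had 8.16, 8.32 and 8.15 in RbpjkCNULL lungs, against 7.66, 7.87 and 7.84 in control lungs (0.43, standard error 0.09, adjusted p = 0.0903). Bbs7, a beta-propeller subunit, had 7.01, 7.09 and 7.15 in RbpjkCNULL lungs, against 6.69, 6.80 and 6.68 in control lungs (0.36, standard error 0.07, adjusted p = 0.0908). Both were without overlap between lungs, and they passed in 4 (Arl6) and 3 (Bbs7) of 20 other settings. Of the other subunits, Bbs9 and Bbs2 had 0.23 each, Ttc8 0.20 and Bbs4 0.16, with adjusted p of 0.385 to 0.640. Bbs1, the subunit that meets Arl6, had 6.83, 6.69 and 6.79 in RbpjkCNULL lungs, against 6.48, 6.72 and 6.73 in control lungs. Here the conditions overlapped, and the interval of 0.12 ran from -0.09 to 0.34.

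The last 2 genes, Mkks and Bbs12, encode chaperonin-like proteins that help the BBSome assemble. Mkks was the only one of the 35 genes with a negative log2 fold change. It had 7.23, 7.24 and 7.23 in RbpjkCNULL lungs, against 7.18, 7.28 and 7.37 in control lungs (-0.05, standard error 0.07, adjusted p = 0.881). Bbs12 had 5.81, 6.16 and 6.10 in RbpjkCNULL lungs, against 5.91, 6.00 and 5.94 in control lungs (0.07, standard error 0.10, adjusted p = 0.863). The conditions overlapped for both, with intervals of -0.22 to 0.12 for Mkks and of -0.17 to 0.30 for Bbs12.

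**Figure D3:**
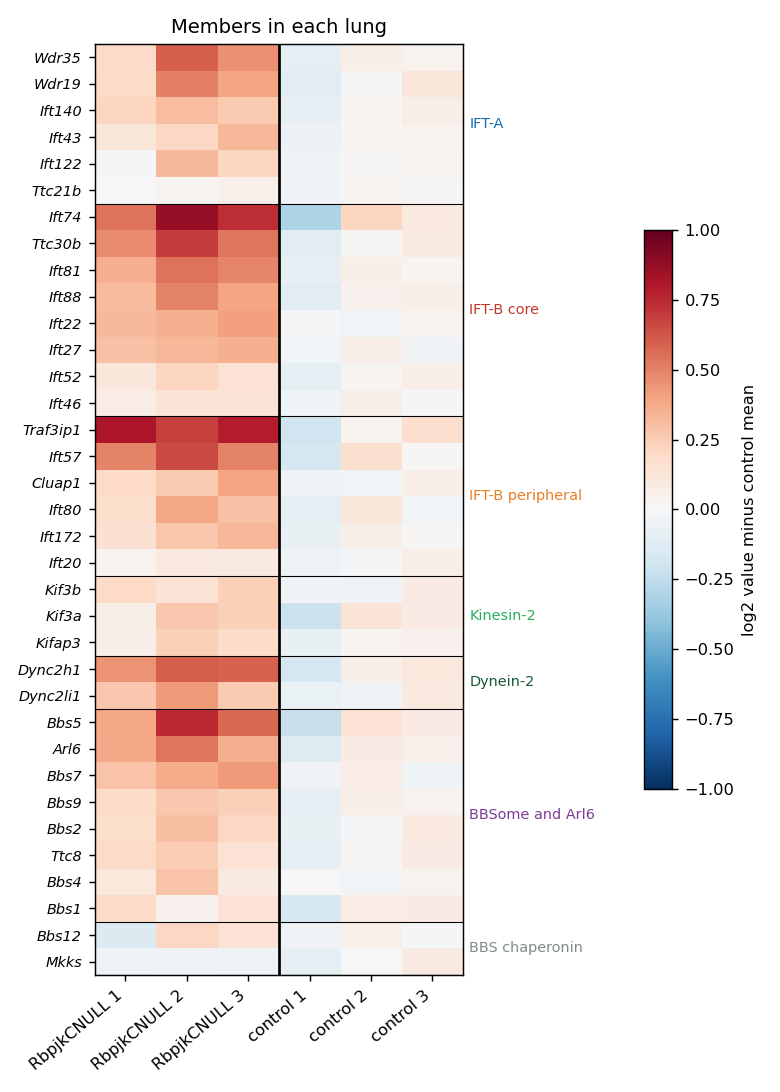
Values of the 35 genes (rows, by subcomplex) in each lung (columns), as the log2 value minus the mean of the 3 control lungs, on a colour scale of -1 to 1. RbpjkCNULL replicate 1 is paler than replicates 2 and 3 for most genes, and control replicate 1 is the lowest control for 30 of the 35.

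Many of the 35 genes had the same lung as the lowest or highest of its condition. RbpjkCNULL replicate 1 had the lowest value of its condition for 27 of the 35, against 34.7% of all genes, and RbpjkCNULL replicate 2 had the highest for 24, against 24.1% of all genes. Control replicate 1 was the lowest control for 30 of the 35, against 40.7% of all genes. As a median over the 35 genes, the RbpjkCNULL lungs lay 0.19, 0.31 and 0.29 above the control mean, and the control lungs at -0.08, 0.03 and 0.06 (log2). Both arrays numbered 1 had high lower quartiles, as did control replicate 3, and with the lower quartile as a covariate the median difference of the 35 genes was 0.21 and 1 of them passed. Without both arrays numbered 1 the median difference was 0.27, but 0 of the 35 genes passed (22 at an unadjusted p under 0.05, limma).

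Because Xist followed genotype, the RbpjkCNULL lungs were also set against control replicate 3, the control that shares their low Xist. All 3 RbpjkCNULL lungs lay above it for 28 of the 35 genes, against 8.92% of all genes. These are by construction the 28 genes without overlap counted above, since control replicate 3 is 1 of the controls, so the count adds no support. The mean of the RbpjkCNULL lungs lay above it for 34 of the 35, against 22.7%. The median difference from that lung was 0.215 over the 35 genes and -0.09 over all genes. In that smaller comparison Traf3ip1 had a difference of 0.59, Ttc30b of 0.48, Dync2h1 of 0.45 and Ift81 of 0.44. None of the 35 passed limma there (13 higher at an unadjusted p under 0.05, against 2.11% of all genes), in which a single control lung stands for its group and is assumed to vary like the others. With the Xist level as a covariate, 0 of the 35 passed (11 at an unadjusted p under 0.05), and the median difference was 0.20.

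The calls of single genes depended on every array. With 1 lung left out, the number that rose was 2, 0 and 0 without RbpjkCNULL replicates 1, 2 and 3, and 1, 2 and 1 without control replicates 1, 2 and 3, while 34 of the 35 log2 fold changes remained above 0 in each of these fits. The methods' t-test with adjustment called 0 of the 35 (0.0377% of all genes higher). Unadjusted, it put 26 of the 35 under 0.05 and higher, where it put 3.46% of all genes. Traf3ip1 kept its call in 13 of 20 other settings, Ttc30b and Ift81 in 10 and Dync2h1 in 9, and the 4 genes were higher in RbpjkCNULL lungs in all 20.

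The levels of the 35 genes were moderate. Their means over all lungs ran from 5.99 to 9.56, and 33 of the 35 lay above 6.45, the median of all gene means. Within conditions the median SD of the 35 genes was 0.083, against 0.116 for all genes. Across the 35 genes the log2 fold change and the mean level had a Pearson correlation of -0.08 and a Spearman correlation of -0.05. These are descriptions over 35 genes that share the same 6 arrays, and probe brightness enters the level of each gene.

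A further 19 measured genes of the same pathways, outside the 35, had a median log2 fold change of 0.10. None of the 19 passed the test. With an unadjusted p under 0.05, 7 of them were higher (3.56% of all genes), and 14 of the 19 had a value above 0 (31.9% of all genes). The largest were Tctex1d2, a light chain of dynein-2, with 0.66 (standard error 0.16, adjusted p = 0.162), and Ttc26, a subunit of IFT-B, with 0.53 (0.17, adjusted p = 0.385). The intermediate chains of dynein-2, Wdr34 and Wdr60, had 0.35 (0.08) and 0.31 (0.08). The lowest was Kif17, another kinesin of the cilium, with -0.11 (0.07). The 15 genes of the transition zone, the gate at the base of both kinds of cilium, had a median of 0.26. Of the 15, 0 were called and 9 were higher at an unadjusted p under 0.05 (3.56% of all genes). The largest differences of that list were those of Cep290 (0.43, standard error 0.14, adjusted p = 0.419) and Rpgrip1l (0.38, 0.11, adjusted p = 0.274).

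Genes of motile cilia, a list chosen with earlier results of these data known, rose in the same lungs. Of 24 measured, 22 rose and 0 fell (1.16% and 0.113% of all genes), with a median log2 fold change of 1.01 (2.01-fold). The summed unlogged level of the list was 4597 to 4917 in RbpjkCNULL lungs, against 2335 to 2608 in control lungs. These calls numbered 3 by the methods' t-test with adjustment, 0 with the Xist covariate and 0 in the lungs with low Xist. Rsph4a, a radial spoke protein, and Cdhr3, a cadherin of airway ciliated cells, had the largest values, both 1.24, with standard errors of 0.07 and 0.12. The smallest value was that of Spag6, whose conditions overlapped (0.14, standard error 0.08, adjusted p = 0.706 from limma). The paper cites earlier work in which such mutants had extra ciliated and neuroendocrine cells. The part of airway ciliated cells in the values of the 35 genes was not tested. The median of the motile list was above the highest of the 35 genes, Traf3ip1 at 0.76, and the difference between the lists was not tested. Genes of the hedgehog pathway, whose signal passes through the primary cilium, did not pass in any of 12 measured (1 lower and 0 higher at an unadjusted p under 0.05, limma). Of the 12, 11 had a log2 fold change below 0, as did 14460 of all 21225 genes, and the median was -0.14, against -0.05 over all genes. Every RbpjkCNULL lung lay below every control lung for 5 of the 12, against 9.28% of all genes. Gli2, a transcription factor of that pathway, had 6.30, 6.33 and 6.32 in RbpjkCNULL lungs, against 6.55, 6.60 and 6.63 in control lungs (-0.27, standard error 0.06, adjusted p = 0.159), and Gli3 had -0.24 (0.13, adjusted p = 0.674). Markers of Clara cells, the secretory cells of the airway, fell in all 5 of 5 genes (Scgb1a1, Scgb3a2, Cyp2f2, Cbr2 and Hp). Their summed level was 1534 to 2094 in RbpjkCNULL lungs, against 5922 to 6723 in control lungs. All 5 are among the genes that the paper selected for being lower on these same arrays, so their fall was fixed in advance. The paper also reports, from E18.5 stainings it does not show, that Cbr2 and Hp overlapped with markers of ciliated or basal cells. Markers of all epithelium had sums of 4622 to 5140 in RbpjkCNULL lungs, against 4690 to 4852 in control lungs. The 7 single genes differed in direction, with 3 log2 fold changes above 0 and 4 below (-0.09 to 0.30).

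**Figure D4:**
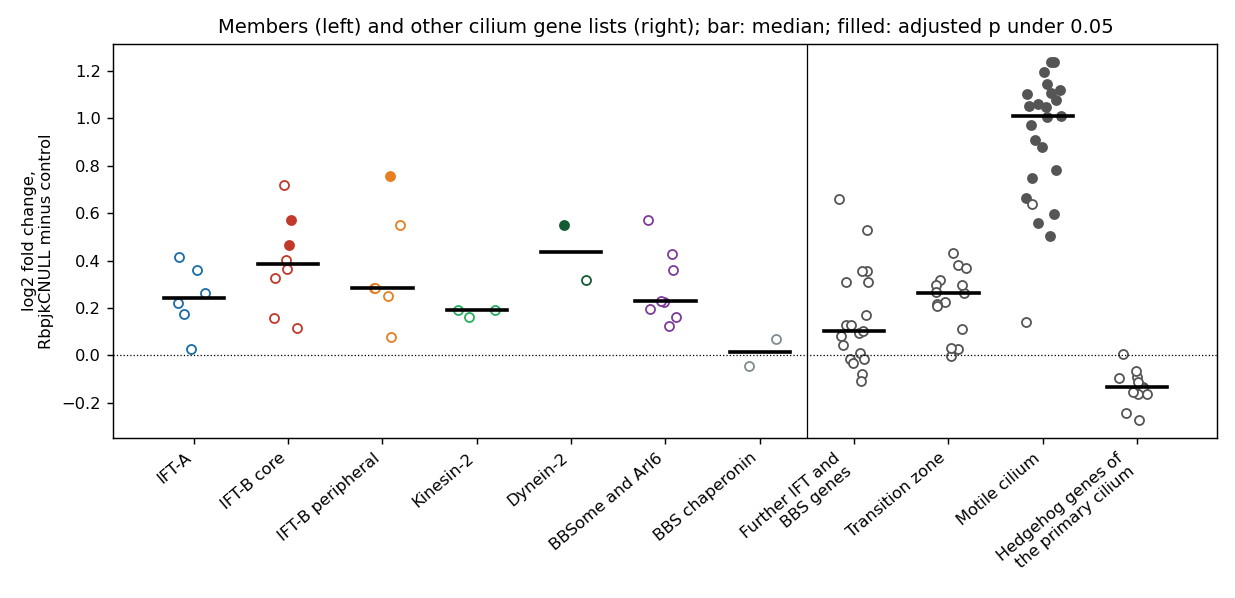
Log2 fold change (RbpjkCNULL minus control, vertical axis) of the 35 genes by subcomplex, left of the line, and of 4 other lists of cilium genes, right of it. Points are genes, filled where the adjusted p is under 0.05, and bars are medians. Motile cilium genes lie between 0.14 and 1.24, the 35 genes between -0.05 and 0.76, and hedgehog genes between -0.27 and 0.00.

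Of 8 measured regulators of ciliogenesis, 1 rose and 0 fell (1.16% and 0.113% of all genes), with a median log2 fold change of 0.22. Of the 8, 6 were above 0 (31.9% of all genes) and 2 below. Foxj1, the master regulator of motile cilia, had 7.98, 7.89 and 7.95 in RbpjkCNULL lungs, against 6.86, 7.26 and 7.35 in control lungs, and rose by a log2 fold change of 0.78 (standard error 0.13, adjusted p = 0.0333). Rfx3 and Rfx2 bind the X-box, an inverted repeat in front of many ciliary genes. Rfx3 had 8.02, 7.995 and 8.02 in RbpjkCNULL lungs, against 7.53, 7.63 and 7.76 in control lungs (0.37, standard error 0.08, adjusted p = 0.107). Rfx2 had 6.91, 6.93 and 6.96 in RbpjkCNULL lungs, against 6.75, 6.68 and 6.70 in control lungs (0.23, standard error 0.06, adjusted p = 0.287). Both were without overlap but did not pass. Myb and Trp73, transcription factors upstream of Foxj1, had 0.39 (0.08, adjusted p = 0.109) and 0.22 (0.08, adjusted p = 0.506), and Ccno, a cyclin-like protein of multiciliated cells, had 0.05 (0.17). Gmnc and Mcidas, which start the multiciliated cell program, were negative. Gmnc had low values of 3.94, 4.15 and 4.18 in RbpjkCNULL lungs, against 4.45, 4.26 and 4.56 in control lungs, with every RbpjkCNULL lung below every control (-0.33, standard error 0.10, adjusted p = 0.379), and Mcidas had -0.20 (0.10, adjusted p = 0.664).

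Promoters of the 35 genes were searched for these elements in RefSeq windows (GRCm38.p6) of 250 bases before to 50 after the start, which were held for 30 of the 35. The windows of Ift80, Ift81, Ift122, Ttc30b and Dync2li1 were not analysed here. A loose X-box was written as GTNNCC, 0 to 3 bases and GGNNAC, and a strict one, which is part of the loose one, as GTTNCC, 0 to 3 bases and GGNAAC. Both forms read the same on either strand. The loose form was in 6 of the 30 windows (20%), against 4.98% of the 15890 windows of genes on the array, and the strict form in 2 (6.67%), against 0.944%. The X-box was not particular to the 35 genes. Of transition zone genes with a window, 61.5% held the loose and 30.8% the strict form. Further pathway genes had 27.8% for each form, and motile cilium genes 19% and 0%. The forkhead element TGTTTAC, searched on both strands, was in 0 of the 30 and in 3.52% of all. A match is a description of letters and not a site of binding. The sequences below are those of the 6 genes with a match, 5′ to 3′ on the strand of the gene, with the X-box in capitals.
Ift57 (chr16:49699214-49699266, plus strand, strict form, 47 bases before the start): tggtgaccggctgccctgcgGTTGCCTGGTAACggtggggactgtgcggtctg
Bbs7 (chr3:36613477-36613530, minus strand, strict form, 107 bases before the start): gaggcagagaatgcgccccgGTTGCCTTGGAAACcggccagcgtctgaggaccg
Ift22 (chr5:136908097-136908149, plus strand, loose form, 19 bases before the start): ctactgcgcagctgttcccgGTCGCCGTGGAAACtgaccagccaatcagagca
Wdr19 (chr5:65199642-65199695, plus strand, loose form, 20 bases before the start): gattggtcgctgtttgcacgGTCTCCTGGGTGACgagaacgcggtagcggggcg
Bbs1 (chr19:4906613-4906634, minus strand, loose form, reaching past the start): ctgagctgGTTGCCAAGGCGAC
Bbs4 (chr9:59353472-59353493, minus strand, loose form, reaching past the start): ctcagctgGTCGCCCGGGAAAC
Ift57 and Ift22 each held a second loose match further from the start. The 6 genes had log2 fold changes of 0.55 for Ift57, 0.36 for Bbs7, 0.37 for Ift22, 0.36 for Wdr19, 0.12 for Bbs1 and 0.16 for Bbs4, and 0 of the 6 passed the test. Traf3ip1 and Dync2h1, which rose, had windows in which neither X-box form was written.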

How the data were processed

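Total RNA of whole E18.5 lungs, dissected at or distal to the carina, was amplified, labelled and hybridized by the authors. The authors ran RMA (affy, R 2.12.0) with an Entrez Gene probe mapping and deposited 1 log2 value per gene and array. These were used without further scaling or filter. RMA aligns all arrays by quantiles, so a shift shared by all genes would not be seen. Of 21225 genes, 20239 were named by the table of the array, 529 more by Entrez Gene ID in RefSeq, and 457 were left unnamed.

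The conditions were contrasted in limma 3.58.1 (R 4.3.3, lmFit and eBayes, prior of 3.48 degrees of freedom). P values were adjusted by Benjamini-Hochberg over all genes, with a threshold of 0.05. Nothing states separate litters, so p values measure the spread between these lungs. By rule, values per lung were given for genes that passed and for the largest and smallest difference in each subcomplex. Those of Ift22, Ift57, Arl6, Bbs7, Gmnc and Ddx3y were added after their values were seen. So was the naming of Tctex1d2, Ttc26, Ttc30a1, Ttc30a2, Wdr34, Wdr60, Kif17, Myb, Trp73, Ccno, Mcidas, Spag6, Eif2s3y, Kdm5d and Uty. The genes, lists and alternatives were chosen with earlier results of these data known, and lists were described by counts and medians without a test. Alternatives were other variance models, scalings, filters and tests, covariates, a replicate block, and leaving arrays out.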

Additional observations from a re-analysis of the deposited data

How the results depend on the processing

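The median over the 35 genes ran from 0.199 to 0.302 over all 20 other settings, and 33 or 34 of the 35 were above 0 (32 of 33 with a filter at the median of gene means). The number that rose was 4. It was 9 with trend, 11 with array weights, 8 after quantile and 10 after cyclic loess scaling, 11 with a filter at the median of gene means, 11 at an adjusted p under 0.1 and 24 at an unadjusted p under 0.05. It was 0 by the methods' t-test, 0 with Xist as a covariate, 0 in the lungs with low Xist, 1 with the lower quartile as a covariate, 0 without both arrays numbered 1, and 0 to 2 with single lungs left out. Median standard errors were 0.13 with Xist as a covariate and 0.08 without it. The causes of these changes were not tested. Whether the replicate numbers paired the lungs could not be told. Correlations of same-numbered deviations were 0.49, 0.31 and -0.09, and those of other pairs ran from -0.53 to 0.41. With the replicate block 7 of the 35, 1 further pathway gene and 1 transition zone gene rose. The median standard error of the 35 genes was then 0.066, against 0.079 in the main fit.

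Over all genes 246 rose and 24 fell. The t-test gave 8 and 0, Xist as a covariate 0 and 0, and the lungs with low Xist 0 and 0 (1769, 1418 and 1833 in either direction at an unadjusted p under 0.05). Without both arrays numbered 1, 160 rose (1928 in either direction at an unadjusted p under 0.05, limma). With array weights 49 fell, and with the lower quartile as a covariate 62 fell. With single lungs left out, 128 to 213 rose and 11 to 36 fell (128 without RbpjkCNULL replicate 2, 11 without it or replicate 3). Of the motile cilium genes 22 rose, but 3 by the t-test, 0 with Xist and 0 in lungs with low Xist. Of further pathway genes 1 rose with trend and 1 with the filter at the median, which also gave 1 transition zone gene. The kinesin-2 median was 0.094 and the dynein-2 median 0.314 with the Xist covariate, and 0.332 for dynein-2 in lungs with low Xist. The chaperonin median of 0.012 changed sign with the median filter (-0.045), Xist (-0.034), low-Xist lungs (-0.027) and the lower quartile (-0.043), and ran from -0.023 to 0.065 with single lungs left out. Ift20 had -0.002 with Xist and Bbs12 -0.030 with the lower quartile. Scaling moved the median of all genes from -0.050 to -0.005 at most.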
